A study of Mus musculus with 12 samples.

Results

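The collagen genes of the mouse were followed in 12 poly(A) RNA-seq libraries, 3 from each of 4 groups: axillary lymph node and spleen of DKO mice, which lack both apoE and apoA-I, and the same organs of DKO mice that overexpress human apoA-I (DKO/hA-I). Every animal was 30 weeks old and ate normal laboratory diet, so the DKO/hA-I controls also lacked apoE and mouse apoA-I, and no wild-type tissue entered. Members are all genes whose symbol is Col, a number, a and a second number, which gave 43 of the 23284 symbols counted in both tissues. They fall into 11 fibrillar chains, 6 basement membrane chains (type IV), 6 type VI chains and 20 others. The others are 9 fibril-associated chains, 2 multiplexins, 4 transmembrane chains and 5 short chain, anchoring and remaining chains. Col26a1 is not among the symbols under that name. The sources used here do not name the promoter of the human transgene. The nodes and the spleens came from different animals, and each library has an animal code of its own.

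A collagen is a trimer of chains wound into a triple helix, with a glycine at a fixed spacing along each chain. Fibrillar collagens (types I, III, V and their relatives) pack side by side into the tensile fibres of the stroma, type IV forms the sheet-like network of basement membranes around vessels, and type VI forms beaded microfilaments that link cells to their matrix. In spleen and lymph node, reticular cells wrap a scaffold of types I and III fibres in a type IV sheath, which lymphocytes move along and small molecules pass through.

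The coding sequences show what sets the classes apart. Each line gives 63 bases from the start of the longest uninterrupted glycine repeat, 5′ to 3′, from the longest open reading frame of the GENCODE vM21 transcripts, with the glycine codons (GGN), 1 in each triplet of codons, in capitals. They are shown as examples of the classes the lymph node results turn on: a fibrillar, a basement membrane and a type VI chain higher in DKO nodes, and Col6a5, a type VI chain with a large fold that missed the threshold.
Col1a2: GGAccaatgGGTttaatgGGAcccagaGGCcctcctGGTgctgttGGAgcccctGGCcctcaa
Col4a1: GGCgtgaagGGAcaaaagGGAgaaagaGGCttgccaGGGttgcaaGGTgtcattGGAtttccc
Col6a1: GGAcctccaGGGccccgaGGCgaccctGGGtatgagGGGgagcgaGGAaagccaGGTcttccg
Col6a5: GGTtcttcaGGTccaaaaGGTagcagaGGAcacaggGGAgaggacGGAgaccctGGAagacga

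The repeat of Col1a2 ran for 339 triplets without a break, and that of Col3a1, the type III chain, for 344. In Col4a1 the longest stretch had 40 triplets and the repeat was broken into 22 runs of 5 or more. Col6a1 held 87 triplets in its longest run and Col6a5 held 37, and runs made up 32.2% of the codons of Col6a1 and 11.8% of those of Col6a5. The fibrillar chains Col24a1 and Col27a1 stood between these classes, with longest runs of 216 and 217 triplets.

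Libraries held 5911835 to 11950825 counts, the lowest and the highest both from DKO nodes (replicates 2 and 3), so 3 counts correspond to 0.259 to 0.506 CPM, the unit of count scaled to library total and TMM factor used throughout, and calls are edgeR quasi-likelihood tests over all genes with a Benjamini-Hochberg adjusted p under 0.05. The spleen identity list had all 10 genes lower in node than in spleen. The pseudogene Rpl31-ps12 had 2094 counts in DKO nodes against 3 in DKO/hA-I nodes, but 5 in DKO spleens against 2162 in DKO/hA-I spleens. The direction is opposite in node and spleen, and whether the genotype labels of either tissue are exchanged was not tested. Genotypes are given as labelled, and directions between them rest on the labels. An exchange within a tissue would reverse the direction of every genotype difference in it. The DKO nodes share the middle number of their animal codes (75) and the DKO/hA-I nodes have others (76, 77 and 78), so genotype and whatever that number marks cannot be told apart in node. The tests see only the variation among these 12 libraries, which may in part be technical.

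Collagen transcripts as a whole were higher in DKO nodes than in DKO/hA-I nodes and near level between the spleens. Summed over the 43 members, the nodes held 2035, 1775 and 4221 CPM in DKO replicates 1 to 3 and 1199, 980 and 838 CPM in DKO/hA-I. The spleens held 1458, 1243 and 1261 CPM in DKO and 1211, 1366 and 1314 CPM in DKO/hA-I. All DKO nodes lay above all DKO/hA-I nodes, DKO replicate 3 farthest, while the spleen groups overlapped. In bulk tissue, fewer cells of a type and less RNA per cell cannot be told apart.

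**Figure D1:**
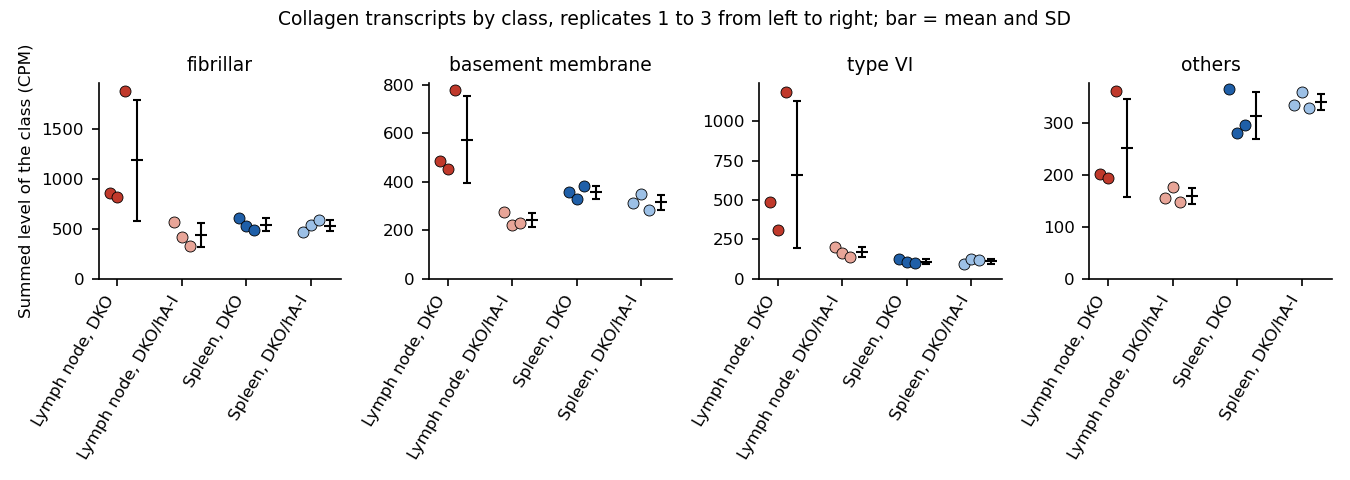
Summed CPM of the collagen genes of each class in the 12 libraries (linear axes from 0, 1 panel per class), with each library as a point and each group's mean and SD beside its 3 points. Type VI in node ran from 136 to 1190 CPM and in spleen from 93.1 to 124 CPM, and DKO node replicate 3 is the highest point of the fibrillar, basement membrane and type VI panels.

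By class, type VI chains summed to 488, 307 and 1190 CPM in DKO nodes and 200, 164 and 136 CPM in DKO/hA-I nodes. Fibrillar chains summed to 859, 821 and 1889 CPM against 570, 416 and 326 CPM, and basement membrane chains to 487, 454 and 780 CPM against 273, 222 and 229 CPM. These 3 classes had no overlap between the node groups. The others summed to 201, 194 and 362 CPM against 155, 177 and 147 CPM, also without overlap.

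In lymph node, 9 of the 32 members tested were higher in DKO and 0 were lower, where 3.95% of all 14012 genes tested were higher and 2.92% lower. The 9 are Col1a2, Col5a2, Col4a1, Col4a2, Col6a1, Col6a2, Col6a3, Col16a1 and Col18a1. The median log2 fold change of the tested members was 1.18, beside 0.01 over all genes. The groups did not overlap in 16 members with DKO above and 2 with DKO below, a separation seen in 15.6% and 14.9% of all genes. These calls depended on single libraries. Without DKO replicate 3, 2 of the 9 stayed past the threshold (Col4a1 and Col5a2). Without DKO replicate 1, 4 of the 9 stayed (Col4a1, Col4a2, Col5a2 and Col16a1), and Col6a5 and Col28a1 were called as well. Without DKO replicate 2 all 9 stayed, and without any 1 of the DKO/hA-I nodes 0 members were called.

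Among the fibrillar chains, 2 of 9 tested were higher, with a class median log2 fold change of 1.62. Col1a2 (ENSMUSG00000029661.16, chromosome 6, 4504814 to 4541544, GRCm38), the second chain of type I collagen, stood at 270, 225 and 508 CPM in DKO nodes and 143, 102 and 86.6 CPM in DKO/hA-I nodes. Every DKO node lay above every DKO/hA-I node, and the log2 fold change was 1.61 ± 0.33 (SE; edgeR adjusted p = 0.0335). Col5a2 (ENSMUSG00000026042.16), a type V chain that co-assembles with type I and limits fibril width, stood at 61.4, 80.5 and 138 CPM against 35.9, 30.2 and 25.6 CPM. Its groups also did not overlap, with a log2 fold change of 1.62 ± 0.30 (edgeR adjusted p = 0.0255).

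Other abundant fibrillar chains missed the threshold. Col1a1, the main chain of type I, held 172, 135 and 337 CPM in DKO nodes against 104, 60.3 and 43.6 CPM (log2 fold change 1.64 ± 0.42, edgeR adjusted p = 0.059). Col3a1 held 248, 283 and 716 CPM against 194, 130 and 87.4 CPM (1.62 ± 0.46, edgeR adjusted p = 0.0786). In both, the groups did not overlap and DKO replicate 3 was the highest library. Col5a1 (1.47 ± 0.35, edgeR adjusted p = 0.0502) and Col5a3 (1.75 ± 0.45, edgeR adjusted p = 0.0611), the other type V chains, lay just outside. Col11a2 and Col27a1, by contrast, had negative values (-0.42 ± 0.25 and -0.56 ± 0.17), and Col27a1 was lower in each DKO node (30.2, 22.3 and 33.4 CPM against 46.4, 42.4 and 39.6 CPM) at an edgeR adjusted p of 0.0902.

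The ubiquitous type IV pair rose together. Col4a1 (ENSMUSG00000031502.11, chromosome 8, 11198423 to 11312826) held 281, 270 and 463 CPM in DKO nodes against 157, 131 and 142 CPM in DKO/hA-I nodes, a log2 fold change of 1.25 ± 0.22 (edgeR adjusted p = 0.0227). Col4a2 (11312805 to 11449287) held 204, 182 and 314 CPM against 114, 88.1 and 84.1 CPM, a log2 fold change of 1.30 ± 0.23 (edgeR adjusted p = 0.0227). The genes lie head to head, and their first exons overlap by 22 bases on opposite strands, a small part of either transcript. The DKO nodes lay above the DKO/hA-I nodes for both chains. Col4a5, a chain of other basement membranes, did not pass the test (0.14 ± 0.33), and Col4a3, Col4a4 and Col4a6 had too few counts to be tested.

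Type VI divided by chain. The 3 chains of the common type VI trimer all rose. Col6a1 held 191, 112 and 385 CPM in DKO nodes against 77.7, 63.2 and 54.8 CPM (log2 fold change 1.83 ± 0.41, edgeR adjusted p = 0.043). Col6a2, its neighbour on chromosome 10, held 145, 77.6 and 313 CPM against 51.1, 41.6 and 29.9 CPM (2.14 ± 0.48, edgeR adjusted p = 0.0418). Col6a3, the long chain that extends the trimer's end, held 124, 75.1 and 272 CPM against 52.2, 40.1 and 35.4 CPM (1.90 ± 0.44, edgeR adjusted p = 0.0458). In each of them DKO replicate 2 was the lowest DKO node and still above all DKO/hA-I nodes.

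Col6a4, Col6a5 and Col6a6 are alternative partners related to Col6a3, set in tandem on 1 strand of chromosome 9. Col6a5 (105856078 to 105960643) had the highest fold of any member in node and the widest spread, with 13.5, 35.4 and 209 CPM in DKO against 6.97, 3.8 and 2.37 CPM in DKO/hA-I. Its groups did not overlap, but its log2 fold change of 4.30 ± 1.03 missed the threshold (edgeR adjusted p = 0.0509). Col6a4, 28811 bases away, held 12.5, 5.57 and 9.45 CPM against 9.76, 13.0 and 12.5 CPM, with overlapping groups (-0.32 ± 0.29). Col6a6, 27918 bases away on the other side, held 1.17, 0.844 and 1.68 CPM against 2.60, 2.62 and 1.51 CPM (-0.81 ± 0.37). The difference in fold between these neighbours was not tested.

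**Figure D2:**
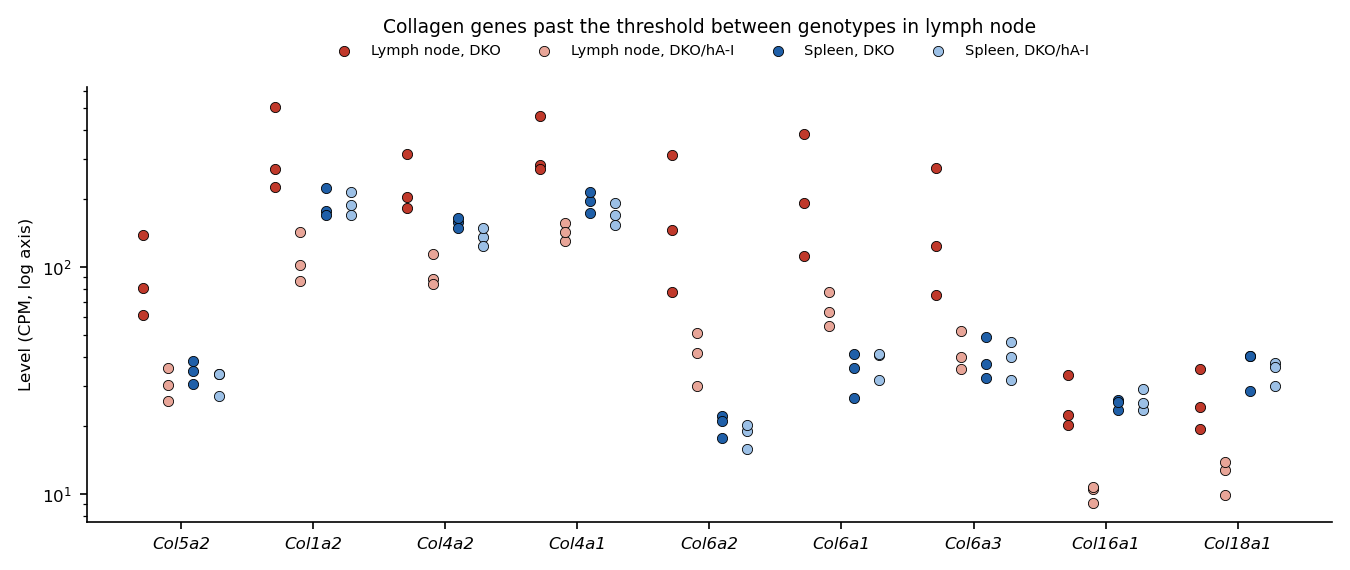
CPM (log axis) of the 9 collagen genes higher in DKO nodes, with 1 point for each of the 12 libraries and the 4 groups side by side for each gene. The node groups do not overlap in any of the 9, while the spleen groups do in all, and the lowest points are the DKO/hA-I nodes of Col16a1 (9.14 to 10.8 CPM) and Col18a1 (9.89 to 13.8 CPM).

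Of the 14 other collagens tested in node, 2 were higher, with a class median log2 fold change of 0.32. Col16a1, a fibril-associated chain that decorates other collagens, held 20.1, 22.3 and 33.4 CPM in DKO against 10.5, 10.8 and 9.14 CPM (log2 fold change 1.33 ± 0.22, edgeR adjusted p = 0.0202). Col18a1, the basement membrane multiplexin whose cleaved end is endostatin, held 24.1, 19.4 and 35.7 CPM against 12.7, 13.8 and 9.89 CPM (1.14 ± 0.25, edgeR adjusted p = 0.0403). Neither overlapped between groups. Col15a1, the other multiplexin, held 74.8, 58.5 and 179 CPM against 44.9, 43.8 and 47.1 CPM, at a log2 fold change of 1.22 ± 0.39 (edgeR adjusted p = 0.102). Col14a1, a fibril-associated chain, was at 14.0, 18.1 and 29.8 CPM against 8.73, 11.8 and 8.28 CPM (1.11 ± 0.30, edgeR adjusted p = 0.0706). Col12a1, close kin of Col14a1, had a value near 0 (-0.09 ± 0.25) and overlapping groups. The transmembrane chains tested, Col13a1, Col17a1 and Col23a1, all had negative values (-0.76, -0.70 and -0.67) that missed the threshold.

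In the authors' deposited table, which compares the genotypes by their own pipeline, 15 of the 43 members had q under 0.05 in lymph node, beside 3.37% of its 23284 genes. Of these 15, 8 were also called by edgeR. The rest were Col1a1, Col3a1, Col5a1, Col5a3, Col6a5, Col15a1 and Col28a1, which DESeq2 called as well. Col18a1 was called by edgeR but had a q of 0.167 in the authors' table. In spleen the authors' deposited table called 0 of the 43 members, beside 0.0344% of its genes.

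The genes that make, process and bind collagen were read from lists outside the 43, with 3.95% of all genes higher and 2.92% lower as the background. Over the 4 lists 17 of 50 tested genes were higher and 0 lower. With single nodes left out it ranged from 0 to 30. Dropping a DKO node left 8 (replicate 1), 30 of 51 (replicate 2) or 3 (replicate 3: Bgn, Fn1 and Mrc2). Dropping a DKO/hA-I node left 0, 0 and 2 of 51 for replicates 1, 2 and 3. Of 18 tested genes for chain modification and folding in the endoplasmic reticulum, 6 were higher in DKO nodes and 0 lower (list median log2 fold change 0.76). They include Plod3 (0.84 ± 0.15) and Plod2 (1.16 ± 0.24), lysyl hydroxylases, Leprel2, a prolyl 3-hydroxylase (1.05 ± 0.20), and P4hb, the shared subunit of the prolyl 4-hydroxylases (0.96 ± 0.22). Of 12 tested genes for trimming and cross-linking outside the cell, 6 were higher and 0 lower. Adamts2, which removes the N-terminal propeptide, rose by 2.28 ± 0.36 on the log2 scale, and Bmp1, which removes the C-terminal one, by 1.25 ± 0.23. The cross-linking enzymes Loxl1 and Loxl2 rose by 1.89 ± 0.39 and 1.42 ± 0.25.

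Of 10 tested collagen receptors and uptake genes, 2 were higher and 0 lower: Mrc2, an endocytic collagen receptor (2.69 ± 0.48), and Lair1, an inhibitory collagen receptor of leukocytes (1.23 ± 0.26). Of 10 fibril partners, 3 were higher and 0 lower: the small proteoglycans Bgn (1.85 ± 0.27) and Dcn (0.84 ± 0.20), and Fn1, fibronectin (2.24 ± 0.34). In spleen 0 genes of the 4 lists were called by edgeR.

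Markers of other cells moved with the node groups. Lipid-laden macrophage markers were higher in DKO for 8 of 10 genes, and summed to 1929 to 9287 CPM in DKO against 856 to 1082 CPM. DKO replicate 2 had the lowest such sum of its group and replicate 3 the highest. The sums of every collagen class had the same lowest and highest DKO node. Fibroblast and reticular markers were higher for 5 of 10 (Pdpn, Pdgfra, Pdgfrb, Cxcl13 and Dpt), with sums of 996 to 1361 CPM against 818 to 987 CPM. With 1 node left out, macrophage calls numbered 1 to 10 and fibroblast and reticular calls 0 to 6, the fewest without DKO replicate 3 or a DKO/hA-I node, and 5 to 9 adipocyte markers were called lower. Adipocyte markers were lower for all 10, at 54.7 to 74.1 CPM against 469 to 1451 CPM. Endothelial markers were lower for 2 of 10 and higher for 0, at 776 to 903 CPM against 1150 to 1234 CPM. Smooth muscle and pericyte markers had 0 of 9 called, and skeletal muscle markers summed to 7.25 to 15.2 CPM in all nodes. The keratinocyte marker Krt5 had 0 counts in all 12 libraries, while the epithelial marker list reached 75.9 CPM in DKO node replicate 2 against 7.41 to 14.5 CPM in the other nodes. B and T cell markers summed to 1838 to 2623 CPM in DKO against 2930 to 3108 CPM, with 0 of 9 tested genes called. Lymph node identity markers summed to 731 to 861 CPM against 1094 to 1217 CPM, with 3 of 10 lower. Spleen identity markers summed to 936 to 1226 CPM against 404 to 720 CPM, with 0 of 5 tested genes called. None of these 3 sums overlapped between the node groups. The part of these cells in the collagen differences was not tested.

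In spleen, 0 of the 32 members tested differed between the genotypes in edgeR's quasi-likelihood test, where 1 of 14009 genes did (0.00714%). DESeq2 and limma voom also called 0 members. At an unadjusted p under 0.05 there were 2 members, Col6a5 and Col8a2, beside 617 of all genes. The median log2 fold change of the tested members was 0.0021, beside 0.0072 over all genes.

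Col1a2 held 222, 177 and 170 CPM in DKO spleens and 170, 188 and 215 CPM in DKO/hA-I spleens, and Col4a1 held 195, 173 and 214 CPM against 170, 191 and 154 CPM. Both overlapped between groups, as did Col4a2 (158, 148 and 164 CPM against 135, 149 and 124 CPM). Col11a2 (0.20 ± 0.14) and Col27a1 (-0.23 ± 0.17) had the lowest unadjusted p of the fibrillar chains, and neither separated the groups. Col6a1 held 41.2, 35.8 and 26.3 CPM against 31.7, 41.0 and 41.4 CPM. Col8a2, a short-chain collagen known from the cornea, held 14.9, 10.1 and 9.41 CPM against 17.7, 20.5 and 16.9 CPM, without overlap (log2 fold change -0.69 ± 0.19, edgeR adjusted p = 0.929). With the middle number of the animal code as a block, Col8a2 fell by 0.91 on the log2 scale in DKO (edgeR adjusted p = 0.0193). Without DKO replicate 1 it fell by 0.93 (edgeR adjusted p = 0.0203). No other spleen shares the middle number of DKO replicate 1, so the block also takes that library out of the contrast. The fits are therefore not separate evidence. Under the block all genes called went from 1 to 515. Col6a5, at 0.442, 0.782 and 0.700 CPM against 1.06, 1.83 and 2.76 CPM, rested on 4 to 32 counts a library (-1.53 ± 0.44, edgeR adjusted p = 0.929).

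**Figure D3:**
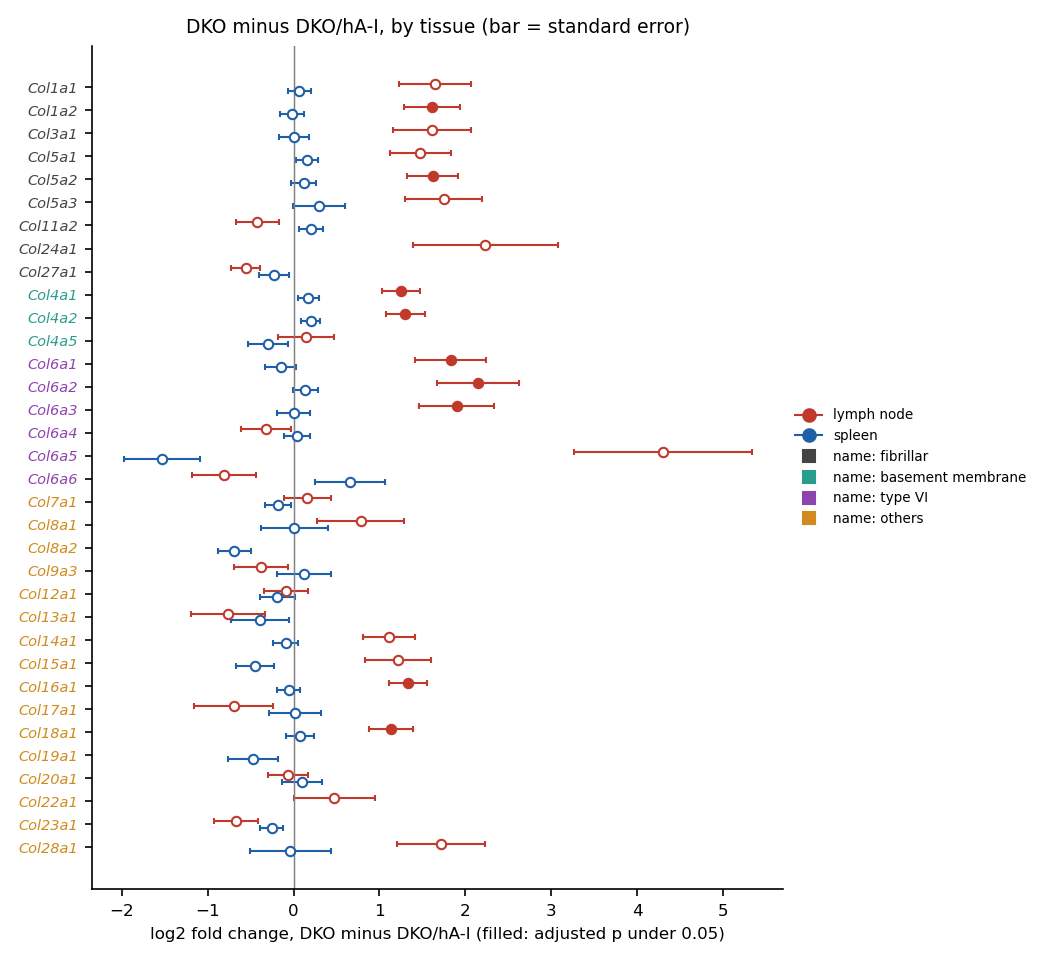
Log2 fold change of DKO against DKO/hA-I for each collagen gene tested, in lymph node and in spleen, with bars of 1 standard error and filled points for genes past the threshold. The filled points are 9 genes in node and 0 in spleen, and the spleen values lie between -0.69 and 0.65 except for Col6a5 at -1.53.

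Whether the genotype contrast differed between the tissues was tested as an interaction in 1 fit of all 12 libraries. It was larger in node for 6 of 34 members and smaller for 0, where 2.04% of all genes were larger and 1.29% smaller. The 6 span the classes: Col1a2 and Col5a2 among fibrillar chains, Col4a1 and Col4a2, Col6a1, and Col16a1. Col16a1 had the lowest adjusted p, with a difference of 1.37 ± 0.26 (edgeR adjusted p = 0.0151), from 25.2 against 10.1 CPM in node (means, DKO against DKO/hA-I) and 24.9 against 25.8 CPM in spleen. DKO node replicates 1 and 2 (20.1 and 22.3 CPM) and all DKO/hA-I nodes lay below all spleens (23.4 to 29.0 CPM), and DKO node replicate 3 lay above them. Col16a1 stayed called whichever library was left out. The count of 6 became 2 without DKO node replicate 3, 12 without DKO node replicate 2, and 1 without DKO/hA-I node replicate 2, DKO/hA-I node replicate 3 or any 1 of the 6 spleens. These values rest on the genotype labels of both tissues.

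Over both genotypes, 11 of 34 members were higher in node and 8 lower, where 17.5% and 17.9% of all 14608 genes were. This contrast does not depend on the genotype labels, but tissue and animal set cannot be told apart. Type VI chains had 4 of 6 higher in node and 0 lower. Fibrillar chains had 4 of 9 higher and 0 lower, basement membrane chains 0 of 3 higher and 1 lower, and the others 3 of 16 higher and 7 lower.

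Among type VI chains, Col6a2 had a log2 fold change of 2.16 ± 0.28 (node minus spleen, edgeR adjusted p = 4.93e-05) and Col6a1 of 1.76 ± 0.25 (edgeR adjusted p = 0.000107). In spleen Col6a2 ran from 15.7 to 22.0 CPM, below every node. Col6a5 was higher by 4.13 ± 0.71 on this scale and Col6a3 by 1.05 ± 0.26. Within the genotypes Col6a2 was called higher in node in both, and Col6a1, Col6a3 and Col6a5 in DKO alone. Col6a6 was called higher in node in DKO/hA-I alone, at 1.51 to 2.62 CPM against 0.530 to 0.962 CPM in the DKO/hA-I spleens. For Col6a1 the DKO/hA-I nodes (54.8 to 77.7 CPM) still lay above every spleen (26.3 to 41.4 CPM). The Col6a3 groups overlapped, since its DKO/hA-I nodes (35.4 to 52.2 CPM) overlapped the spleens (31.8 to 49.2 CPM).

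Among fibrillar chains, Col5a3 (1.46 ± 0.30), Col3a1 (1.03 ± 0.26), Col5a2 (0.70 ± 0.17) and the sparse Col24a1 (3.82 ± 0.79) were higher in node. Within the genotypes each of them was called in DKO alone. Col1a1 was also called higher and Col11a2 lower in node in DKO, and both calls were lost without DKO node replicate 3. Col24a1 rested on 137 counts over the nodes and 7 over the spleens, 20.6 times as many per unit of depth (exact 95% interval of the counting error 9.73 to 52.2). DKO node replicate 3 held 88 of the node counts and each other node 3 to 16, a spread that this interval leaves out. For Col3a1 the DKO spleens held 143, 121 and 88.4 CPM and the DKO/hA-I spleens 99.0, 120 and 130 CPM, a range that the DKO/hA-I nodes (87.4 to 194 CPM) overlapped. Col1a2 differed in opposite directions within the genotypes, higher in node by 0.82 ± 0.27 in DKO (edgeR adjusted p = 0.0432) and lower by the log2 value -0.79 ± 0.27 in DKO/hA-I (edgeR adjusted p = 0.0462). At least 1 of these Col1a2 calls was lost without DKO node replicate 3, DKO/hA-I node replicate 2 or 3, or any 1 of the 6 spleens, and also with no filter, with voom and with the replicate number as a block.

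The basement membrane pair Col4a1 and Col4a2 did not pass the test over both genotypes (0.27 ± 0.13 and 0.03 ± 0.13). Within DKO both were called higher in node (means 338 against 194 CPM for Col4a1 and 233 against 157 CPM for Col4a2). The Col4a2 call was lost without DKO node replicate 3 and with voom. Within DKO/hA-I neither was called, and the node means were the lower (143 against 172 CPM and 95.6 against 136 CPM). Col4a5 was lower in node, at 1.35 to 2.47 CPM against 3.88 to 6.35 CPM in spleen (-1.24 ± 0.19, edgeR adjusted p = 0.000247).

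**Figure D4:**
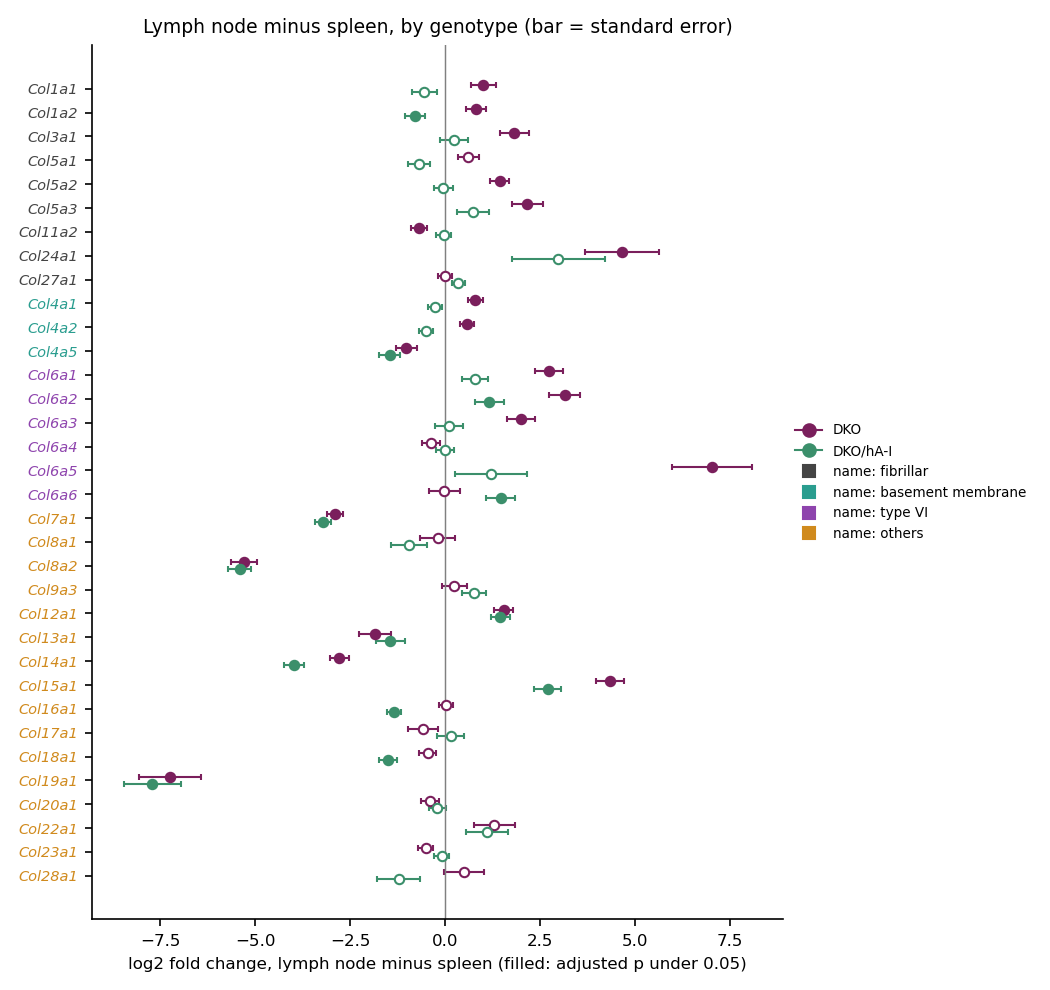
Log2 fold change of lymph node against spleen for each collagen gene tested, in DKO and in DKO/hA-I, with bars of 1 standard error and filled points for genes past the threshold. Col15a1 and Col12a1 lie on the node side and Col8a2, Col14a1 and Col7a1 on the spleen side in both genotypes, and the values of Col19a1 are no bounds, since it had 0 counts in every node.

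The others had members on both sides. Col15a1 ran from 43.8 to 179 CPM in node and from 4.00 to 7.69 CPM in spleen (3.52 ± 0.26, edgeR adjusted p = 3.5e-07). Col12a1 was also higher in node, at 32.5 to 61.0 CPM against 11.0 to 18.3 CPM (1.5 ± 0.18). Col14a1, its relative, went the other way, with 8.28 to 29.8 CPM in node and 124 to 179 CPM in spleen (-3.38 ± 0.18, edgeR adjusted p = 2.24e-08). The multiplexins also divided: Col18a1 was lower in node (-0.98 ± 0.16), a call made within the genotypes in DKO/hA-I alone.

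Col7a1, the anchoring fibril chain known from the skin, held 3.87 to 6.80 CPM in node and 39.3 to 58.3 CPM in spleen (-3.07 ± 0.15, edgeR adjusted p = 9.82e-09). Col8a2 held 0.169 to 0.538 CPM in node, near the floor, and 9.41 to 20.5 CPM in spleen (-5.35 ± 0.23, edgeR adjusted p = 3.32e-09). Col19a1 had 0 counts in all 6 nodes and 139 over the spleens (1.5 to 2.91 CPM), at least 44.0-fold higher in spleen against a floor of 3 counts over the nodes. Col13a1 (-1.64 ± 0.29) and Col16a1 (-0.66 ± 0.13) were lower in node as well, and Col22a1, below 3 CPM throughout, was higher (1.20 ± 0.39). Within the genotypes Col16a1 was called lower in DKO/hA-I alone, and its DKO means were 25.2 CPM in node and 24.9 CPM in spleen. Col22a1 was called in neither genotype taken singly. Both genotypes taken singly agreed on 9 members: Col6a2, Col12a1 and Col15a1 were higher in node in each, and Col4a5, Col7a1, Col8a2, Col13a1, Col14a1 and Col19a1 lower in each. In all, 14 were higher and 7 lower in DKO (11.3% and 11.5% of all genes), and 4 higher and 9 lower in DKO/hA-I (11.8% and 14% of all genes).

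The start regions of 4 of these contrasting genes are printed, a pair higher in node and a pair higher in spleen. Each differed by a log2 value of over 3 over both genotypes. Within the genotypes Col15a1, Col7a1 and Col8a2 were called in both and Col6a5 in DKO alone. The DKO nodes held 13.5, 35.4 and 209 CPM of Col6a5. Each line gives the 150 bases before the RefSeq start on the gene's strand, 5′ to 3′ (GRCm38.p6), with GGGCGG, a GC box, in capitals on either strand (CCGCCC on the opposite one, and matches may overlap). Col15a1 (chr4:47207862-47208011, plus strand) and Col6a5 (chr9:105960644-105960793, minus strand) are higher in node, and Col7a1 (chr9:108953436-108953585, plus strand) and Col8a2 (chr4:126286644-126286793, plus strand) in spleen.
Col15a1: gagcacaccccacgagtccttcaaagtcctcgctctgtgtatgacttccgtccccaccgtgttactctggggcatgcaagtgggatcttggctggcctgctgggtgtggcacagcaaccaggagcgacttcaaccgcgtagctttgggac
Col6a5: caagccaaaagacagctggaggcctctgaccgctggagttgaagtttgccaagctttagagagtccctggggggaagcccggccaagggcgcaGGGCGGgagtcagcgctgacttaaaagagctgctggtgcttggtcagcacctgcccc
Col7a1: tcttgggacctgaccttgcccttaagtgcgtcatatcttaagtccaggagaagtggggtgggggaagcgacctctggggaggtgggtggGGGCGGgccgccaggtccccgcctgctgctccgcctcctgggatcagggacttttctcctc
Col8a2: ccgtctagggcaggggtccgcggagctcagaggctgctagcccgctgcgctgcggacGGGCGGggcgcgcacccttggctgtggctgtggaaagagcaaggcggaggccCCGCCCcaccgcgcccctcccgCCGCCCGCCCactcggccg

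Col8a2 held 4 matches in these 150 bases, Col6a5 and Col7a1 1 each, and Col15a1 none. None of the 4 windows held CCAAT. The same was true of TATAAA. Over the 250 bases before the start, GGGCGG stood in 22 of the 38 promoters of the 35 members with an entry, beside 32.7% of all 32851 mouse promoters. CCAAT stood in 13 of 38 beside 33.9%, and TATAAA in 5 of 38 beside 12.4%. A match to these letters is a description of the window and shows no binding.

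Levels of different chains were compared per exon length, as CPM per 1000 bases of exon. In node, Col6a1 stood highest at 33.6 ± 28.9 (SD over 6 libraries), then Col4a1 at 32.2 ± 17.0, Col3a1 at 28.2 ± 23.1, Col4a2 at 24.8 ± 13.4, Col1a1 at 21.6 ± 16.2 and Col1a2 at 17.9 ± 12.6. The spread within node is wider than the steps between these neighbours. In spleen the order was Col4a1 at 24.5 ± 2.85, Col4a2 at 22.1 ± 2.22, Col14a1 at 21 ± 2.91, Col1a1 at 16.0 ± 1.80, Col1a2 at 15.3 ± 1.84 and Col3a1 at 11.9 ± 2.03. The steps from Col4a1 to Col14a1 and from Col1a1 to Col1a2 were within the spread. With the longest transcript in place of all exons, Col3a1 and Col1a2 stood first in node (49.7 and 41.6) and Col1a2 in spleen (35.6), so the order of these chains depends on the length used.

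Ratios between chains of 1 library cancel its overall collagen level. Their size depends on the length used. With the longest transcript, Col1a1 stood below Col1a2 in DKO nodes (means of 36.2 and 62.5 CPM per 1000 bases). The length is the same for every library, so it does not alter how a ratio compares between groups. The type I ratio Col1a1 to Col1a2, per exon length, was 1.20 ± 0.06 in DKO nodes, 1.15 ± 0.22 in DKO/hA-I nodes, 1.08 ± 0.08 in DKO spleens and 1.01 ± 0.07 in DKO/hA-I spleens (SD, n = 3). Col3a1 to Col1a2 was 1.51 ± 0.32 and 1.54 ± 0.23 in the nodes and 0.779 ± 0.107 and 0.768 ± 0.036 in the spleens. Every node lay above every spleen in this ratio, and the node genotypes overlapped. Col6a1 to Col6a3 was likewise 4.06 ± 0.18 and 4.2 ± 0.12 in the nodes and 2.41 ± 0.56 and 2.64 ± 0.21 in the spleens, again without overlap between tissues. Col6a5 to Col6a3 ran from 0.139 to 0.975 in DKO nodes, from 0.0850 to 0.170 in DKO/hA-I nodes and from 0.0114 to 0.0871 in the spleens.

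Some pathway genes differed between the tissues over both genotypes, in shares to be read beside the 17.5% of all genes higher and 17.9% lower in node. Of the fibril partners, Dcn and Lum, proteoglycans that bind type I fibrils, were higher in node (3.47 ± 0.14 and 4.43 ± 0.37), and Tnxb, tenascin X, was lower (-2.82 ± 0.19), in all 2 of 10 higher and 3 lower. Of the receptors, the collagen receptor kinases parted, Ddr2 higher (1.58 ± 0.11) and Ddr1 lower (-1.78 ± 0.09), with 1 of 11 higher and 4 lower. Gp6, the platelet receptor, had 286 counts in spleen and 1 in node, 272 times as many per unit of depth (exact 95% interval 48.4 to 10770). Extracellular processing genes had 3 of 12 higher and 4 lower, with Tll1 at 4.22 ± 0.45 and Pcolce2 at -4.31 ± 0.30. Modification genes had 3 of 19 higher and 2 lower, among them Glt25d2, a collagen galactosyltransferase (2.25 ± 0.25), and Leprel1, a prolyl 3-hydroxylase (-1.59 ± 0.16).

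Some collagens were at or near the counting floor. Col2a1, Col9a1, Col9a2, Col10a1 and Col11a1, known from cartilage, and Col25a1 had 1 to 18 counts summed over the 12 libraries, and cartilage and bone markers summed to at most 9.01 CPM in any library. Col4a3, Col4a4 and Col4a6, of kidney and other specialised basement membranes, had 39, 42 and 64 counts. These 9 members passed the count filter in no comparison. Col24a1 and Col22a1 were not tested within spleen, and Col8a2 and Col19a1 not within node. Col20a1, Col9a3, Col8a1, Col17a1, Col23a1 and Col28a1 were tested in every comparison, had group means of 0.886 to 15.8 CPM and were called in 0 of them, at unadjusted p of 0.0106 (Col28a1 in node) and above.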

How the data were processed

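The deposited tables, 1 per tissue, hold raw read counts per gene symbol, per the file headers, beside the authors' own p-values and q-values. The submitters' processing notes name Trimmomatic, Bowtie, TopHat, Cuffdiff and GRCm38 (mm10). Neither the counting program nor its use of strand is named in the sources used here, so reads of antisense or overlapping genes could have been shared. The tests on these counts used edgeR 4.0.16 and R 4.3.3 (filterByExpr with minimum count 10 and minimum total 15, TMM, robust quasi-likelihood test, Benjamini-Hochberg over all genes tested). Genotypes were compared within a tissue (6 libraries). Tissues and the interaction were compared in 1 fit of 12 libraries with 4 group means. Most log2 fold changes are printed with a standard error. It was taken as the absolute log2 fold change divided by the square root of the quasi-likelihood F statistic. Lengths and coordinates come from GENCODE vM21, and promoters from RefSeq. Steps were tested on simulated counts: in lymph node 51.5% of genes changed 2-fold and 90% of those changed 4-fold were recovered, and in spleen 83.8% and 100%. Of the simulated calls 6.67% in node and 6.63% in spleen were false. The simulations held 97 to 100 changed genes at each fold, so these shares need not hold where few genes differ. The collagen genes and all lists were chosen with earlier results of these data known. Values were chosen for every called member of a class or the 4 of lowest adjusted p, for the member highest per length, and otherwise for up to 2 members. Not all of these values are printed for every comparison, so a member without one may still have been called. Further members were named after their values were seen. Intervals and floors cover counting error only. Alternatives were RLE or total-count scaling, no filter, DESeq2 1.42.0, voom in limma 3.58.1, blocks by replicate number or animal code, 1 fit of all libraries, leaving out each library, and transcript length.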

Additional observations from a re-analysis of the deposited data

Results flagged for a closer look

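The DKO minus DKO/hA-I contrast differed between lymph node and spleen for 6 collagen genes, by the interaction in edgeR's quasi-likelihood test. The node contrast was the larger in each, by a log2 value of 1.37 ± 0.26 for Col16a1 (adjusted p = 0.0151), 1.61 ± 0.38 for Col1a2 (adjusted p = 0.0388), 1.48 ± 0.35 for Col5a2 (adjusted p = 0.0388), 1.08 ± 0.26 for Col4a2 (adjusted p = 0.0438), 1.96 ± 0.49 for Col6a1 (adjusted p = 0.0469) and 1.06 ± 0.26 for Col4a1 (adjusted p = 0.047). In the libraries as labelled, all 3 DKO nodes lay above all 3 DKO/hA-I nodes for each of the 6, and in spleen the groups overlapped for each.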

How the results depend on the processing

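The log2 fold changes of the 9 collagen genes higher in DKO nodes stayed between 0.84 and 2.50 under every alternative, but the calls did not hold under all. In node DESeq2 called 18 members, limma voom 5 and 1 fit of all 12 libraries 18, and over all genes DESeq2 called 1967 and the 12-library fit 2253 in place of 962. Leaving out 1 library gave 0 to 10 members and 115 to 2245 genes. In spleen DESeq2 called 5 genes in place of 1, the animal code block 515 genes and 1 member, and leaving out 1 library 1 to 167 genes and 0 to 1 members. For the interaction DESeq2 called 15 members and 973 genes, voom 1 and 242, and leaving out 1 library 1 to 12 and 179 to 1160. Tissue calls with 1 library left out were 18 to 22 members and 4475 to 6193 genes over both genotypes, 16 to 22 and 2391 to 4427 in DKO, and 10 to 17 and 2898 to 4624 in DKO/hA-I.

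The replicate block left 2 node members and 438 genes, and 1 member and 299 genes for the interaction. Replicate numbers did not pair the samples (correlations of same-numbered libraries from -0.142 to 0.0296 in node and from -0.114 to 0.118 in spleen).

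Log2 values near 0 that were called in no setting changed sign. With 1 spleen left out, Col1a1 ran from -0.0069 to 0.20, Col3a1 from -0.17 to 0.17, Col14a1 from -0.30 to 0.014 and Col6a1 from -0.31 to 0.011 (DKO minus DKO/hA-I). Col3a1 in spleen became -0.055 with total counts, -0.014 with voom, -0.012 with the replicate block and -0.11 with the animal code block. Node against spleen with 1 library left out, Col1a1 ran from -0.014 to 0.35 over both genotypes and Col3a1 from -0.11 to 0.48 in DKO/hA-I. Why calls differed between settings was not tested. Low counts limit 9 collagen genes, which no comparison tested.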
